A study of Mus musculus with 4 samples.

Results

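Nuclear factor of activated T cells (NFAT) genes and the calcineurin genes that act on their products were followed in the mouse line RAW 264.7, whose cells resemble macrophages and form multinucleated, bone-resorbing osteoclasts under RANKL and M-CSF. The 9 genes were chosen by symbol: the transcription factors Nfatc1, Nfatc2, Nfatc3 and Nfat5, the calcineurin subunits Ppp3ca, Ppp3cb and Ppp3r1, the calcineurin regulator Rcan1 and the kinase Camk4. They are 9 of 19938 genes with a probe set of a single symbol on Affymetrix Mouse Gene 1.0 ST arrays, and each has 1 such probe set. The study had 4 cultures with 1 array each. Control cells carried a control vector and were either unstimulated or given RANKL and M-CSF for 72 h. The miR-155 cells carried a vector that expresses the microRNA miR-155, and were likewise either unstimulated or given both cytokines for 72 h. The unstimulated cultures are listed at the start of that time, so the cytokines cannot be told apart from 72 h in culture. A dose of 20 ng/ml is named by the series text, and whether it applies to each of the cytokines is left unsaid there. That text speaks of wild-type cells, while the sample labels name a control vector for them. The sources used here do not give whether the transfected cells were a pool or 1 clone. The comparisons address the part that miR-155 plays in osteoclast differentiation.

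NFAT proteins NFATc1 to NFATc4 rest in the cytoplasm in a phosphorylated form. A rise in cell calcium activates calmodulin, which switches on the phosphatase calcineurin. Calcineurin removes the phosphates, and NFAT moves into the nucleus, where it often binds DNA beside AP-1 proteins. In osteoclast precursors RANKL, together with calcium signals from ITAM-coupled receptors, leads to strong induction of Nfatc1, which then acts on its own promoter and drives genes for bone resorption. Nfat5 is the family member that answers to salt stress and does not depend on calcineurin.

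The sequence of the microRNA that the vector is named for is shown first, because the comparisons between vectors are meant to address it. The level of miR-155 in these cells was not examined here. The RefSeq entry for the 5′ arm (assembly GRCm38.p6, chr16:84714143-84714165, plus strand) is given with its seed, bases 2 to 8, in capitals.
mmu-miR-155-5p: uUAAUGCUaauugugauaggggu
Both starts of Rcan1 in the RefSeq promoter table are shown next, because Rcan1 had the highest stimulation response of the 9 genes and is known to be transcribed by NFAT from an internal start. Each covers 250 bases before and 50 after the start, on the minus strand of GRCm38.p6. Capitals mark the NFAT core GGAAA or its reverse complement TTTCC, and the AP-1 motif TGANTCA, which reads alike on both strands.
Rcan1 internal start, chr16:92400029-92400328: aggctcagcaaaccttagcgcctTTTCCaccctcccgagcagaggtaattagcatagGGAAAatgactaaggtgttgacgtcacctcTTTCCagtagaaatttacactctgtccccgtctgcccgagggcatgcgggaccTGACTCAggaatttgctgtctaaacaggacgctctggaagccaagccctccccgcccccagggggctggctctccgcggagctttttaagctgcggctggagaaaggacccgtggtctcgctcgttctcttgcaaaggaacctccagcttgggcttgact
Rcan1 upstream start, chr16:92466120-92466419: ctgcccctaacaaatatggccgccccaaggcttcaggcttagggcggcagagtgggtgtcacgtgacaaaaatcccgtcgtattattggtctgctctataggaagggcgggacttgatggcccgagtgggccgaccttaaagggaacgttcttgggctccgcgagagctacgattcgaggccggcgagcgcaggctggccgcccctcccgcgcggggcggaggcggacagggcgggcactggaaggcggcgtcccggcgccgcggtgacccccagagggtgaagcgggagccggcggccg
The internal window held 3 NFAT cores, which begin at bases -227, -193 and -163 from the start, and 1 AP-1 motif, which begins at -110 and overlaps none of them. The upstream window held neither motif. The NFAT core is short and frequent: 61.3% of 32851 promoter windows of the same length held at least 1 and 9.42% held at least 3, while 7.81% held the AP-1 motif and 0.837% held 3 cores together with it. These matches describe letters and are not measured binding sites.

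Nfatc2 also has 2 starts in the table, and the one further upstream is shown because Nfatc2 stood opposite to Nfatc1 after stimulation. Capitals again mark the NFAT core, on the minus strand.
Nfatc2 upstream start, chr2:168601608-168601907: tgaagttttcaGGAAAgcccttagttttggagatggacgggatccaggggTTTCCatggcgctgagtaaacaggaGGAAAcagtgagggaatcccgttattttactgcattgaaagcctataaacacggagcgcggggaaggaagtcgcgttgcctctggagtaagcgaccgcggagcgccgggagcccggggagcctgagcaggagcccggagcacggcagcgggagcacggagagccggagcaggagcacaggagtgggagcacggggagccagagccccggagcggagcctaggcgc
It held 3 NFAT cores, beginning at -239, -200 and -175, and the other Nfatc2 window held 1. Neither held the AP-1 motif. Of the 9 genes, 6 had a window in the table, with 9 windows in all, of which 6 held at least 1 core. Nfatc1, Ppp3ca and Camk4 had no window. The window with the most cores, 4, was that of Ppp3cb, which differed by less than 1.5-fold in every comparison below. Whether the cores go with the responses was not tested. The reported NFATc1 targets described further on had 22 windows for 13 genes, of which 9, or 40.9%, held a core, against 61.3% of all windows.

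The deposited values are on a log2 scale, and every level and difference below is on that scale unless a fold is named. A floor of 4.25 was the 95th percentile of 1212 olfactory and vomeronasal receptor probe sets, genes that these cells are not known to use, and 13561 genes had a value above it on at least 1 array. The same receptor probe sets gave a noise reference, the size below which 95% of them differed between 2 arrays: 0.48 for stimulation in control cells, 0.41 for stimulation in miR-155 cells, 0.37 for the vectors without stimulation and 0.47 for the vectors with it. By the definition of the floor, 95% of the values of these probe sets lie at or under it. The reference therefore does not give the spread of expressed genes between cultures, which was not measured. With a single array in every group, differences of 2 arrays carry no p-value and no check by replicates. The stimulated control array stood apart from the rest over all genes above the floor, with Pearson correlations of 0.908 to 0.937, against 0.982 to 0.989 among the other 3 arrays. All 8 macrophage markers lay above the floor on every array. Their median level was 10.10 in unstimulated control cells, 7.56 in stimulated control cells, 10.14 in unstimulated miR-155 cells and 9.87 in stimulated miR-155 cells, and the log2 of their summed level was 14.69, 13.53, 14.66 and 14.48 in that order. The 9 osteoclast markers stood at medians of 5.46, 11.13, 4.72 and 9.55 in the same order, with summed levels of 8.99, 15.08, 8.62 and 13.34. The part of this shift in cell state in the values of the NFAT and calcineurin genes was not tested, and a change in the share of osteoclasts cannot be told apart from a change in RNA per cell.

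Of the 9 genes, 8 lay above the floor, and Camk4 did not. Nfatc1 and Rcan1 were higher after RANKL and M-CSF with either vector, Nfatc2 was lower with either vector and by less in miR-155 cells, and the 3 calcineurin subunits stayed within the noise reference. Nfat5 was lower after stimulation in control cells, and its difference in miR-155 cells, of the opposite sign, lay within the noise reference. In control cells 2 of the 8 genes were at least 1.5-fold higher, a share to be read against 12.3% of all genes above the floor, and 2 were at least 1.5-fold lower, against 15.1%. In miR-155 cells 2 were at least 1.5-fold higher, against 3.43% of all genes, and 0 were lower, against 3.73%. The median difference of the 8 genes was -0.12 in control and 0.08 in miR-155 cells, beside -0.02 and -0.03 over all genes.

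**Figure D1:**
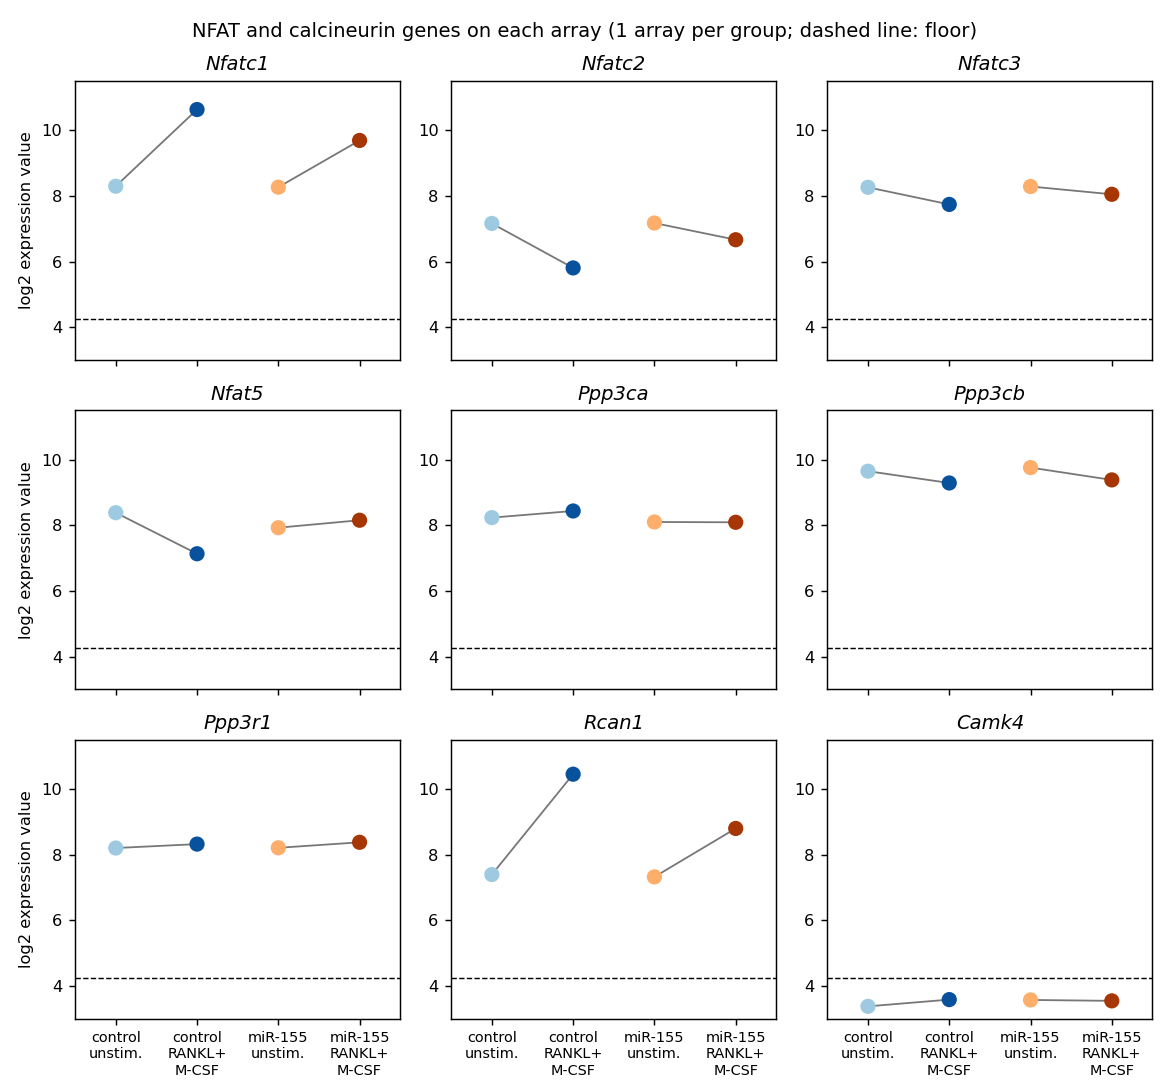
Log2 expression value of each of the 9 genes on each array, 1 point per array; lines join the unstimulated and stimulated array of a vector, and the dashed line is the floor of 4.25. Nfatc1 and Rcan1 are highest in stimulated control cells, at 10.63 and 10.45, Nfatc2 and Nfat5 are lowest there, at 5.81 and 7.13, and Camk4 stays under the floor on all 4 arrays.

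Nfatc1 encodes the NFAT factor that leads the osteoclast programme. Its level was 8.30 in unstimulated control cells, 10.63 in stimulated control cells, 8.27 in unstimulated miR-155 cells and 9.69 in stimulated miR-155 cells. The unstimulated arrays were within the noise reference of each other, the stimulated control array was the highest, and the stimulated miR-155 array lay between. Stimulation came with a difference of 2.34, or 5.05-fold, in control cells and 1.42, or 2.68-fold, in miR-155 cells, which is 60.9% of the control response on the log2 scale. Among the 13561 genes above the floor these responses ranked 159 and 77 from the highest. The vectors differed by -0.03 without stimulation, where 1.18% of all genes were at least 1.5-fold higher and 3.14% lower, and by -0.94 (1.92-fold lower in miR-155 cells) with it. The latter value and the control response use the same stimulated control array, so their values are not independent.

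Rcan1 encodes a regulator that binds and inhibits calcineurin, and it is known in other cells as a gene that NFAT itself induces. It stood at 7.39 in unstimulated control cells, 10.45 in stimulated control cells, 7.32 in unstimulated miR-155 cells and 8.79 in stimulated miR-155 cells. The order of the arrays was that of Nfatc1, and the gap between the stimulated arrays was wider. The response was 3.06 (8.33-fold) in control cells, rank 76 from the highest, and 1.48 (2.78-fold) in miR-155 cells, rank 66, or 48.3% of the control response. Between the vectors Rcan1 differed by -0.07 without stimulation and by -1.65, 3.15-fold lower in miR-155 cells, with it. With 1 probe set for the gene, transcripts from its internal and upstream starts cannot be told apart on these arrays.

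The 1673 genes at least 1.5-fold higher in stimulated control cells give a background for these shares. Their median response was 0.96 in control and 0.22 in miR-155 cells, and the median share per gene was 20.4%. Genes chosen as high on one pair of arrays tend to be less so on another, so these shares are given as a description.

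Nfatc2 encodes the NFAT factor first known from T cells, which is already present in cells before stimulation. Its level was 7.16 in unstimulated control cells, 5.81 in stimulated control cells, 7.17 in unstimulated miR-155 cells and 6.67 in stimulated miR-155 cells. The lowest array was again the stimulated control, on the other side from Nfatc1. The difference with stimulation was -1.36, or 2.56-fold lower, with the control vector and -0.51, or 1.42-fold lower, with miR-155, beyond the noise reference in both. Stimulated miR-155 cells lay 0.86, or 1.81-fold, above stimulated control cells, and the unstimulated vectors differed by 0.01. Of 9 T cell markers measured, 4 lay above the floor on the unstimulated control array, 4 on the stimulated control array, 5 on the unstimulated miR-155 array and 4 on the stimulated miR-155 array, with median levels of 3.92 to 4.31 and summed levels of 7.36 to 7.50. Of the T cell receptor complex, Cd3d and Cd3g stayed under the floor everywhere (3.06 to 3.62), and Cd3e (4.36 to 4.84) and Cd247 (4.62 to 4.76) lay above it on every array.

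Nfatc3, a broadly expressed NFAT factor, showed the direction of Nfatc2 at a smaller size. It stood at 8.26 and 7.74 in control cells without and with stimulation, and at 8.29 and 8.05 in miR-155 cells. Its difference of -0.52 in control cells was just past the noise reference of 0.48 and short of 1.5-fold, and that of -0.24 in miR-155 cells lay within its reference.

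Nfat5 is the salt-responsive member. Its level was 8.38 in unstimulated control cells, 7.13 in stimulated control cells, 7.92 in unstimulated miR-155 cells and 8.15 in stimulated miR-155 cells. The stimulated control array lay below the other 3, among which the highest and lowest differed by 0.46. The response was -1.25, or 2.38-fold lower, with the control vector and 0.23 with miR-155. It was the single one of the 8 genes beyond the noise reference between the unstimulated vectors (-0.46, 1.37-fold lower in miR-155 cells), and it was 1.02 higher (2.03-fold) in miR-155 cells with stimulation. Its difference of the responses, 1.48, ranked 437 from the highest of 13561 genes. The 2053 genes at least 1.5-fold lower in stimulated control cells had median responses of -0.95 in control and -0.13 in miR-155 cells. Their median share per gene was 11.1%, beside 37.5% for Nfatc2 and -18.2% for Nfat5. As for the higher genes, these shares are given as a description.

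**Figure D2:**
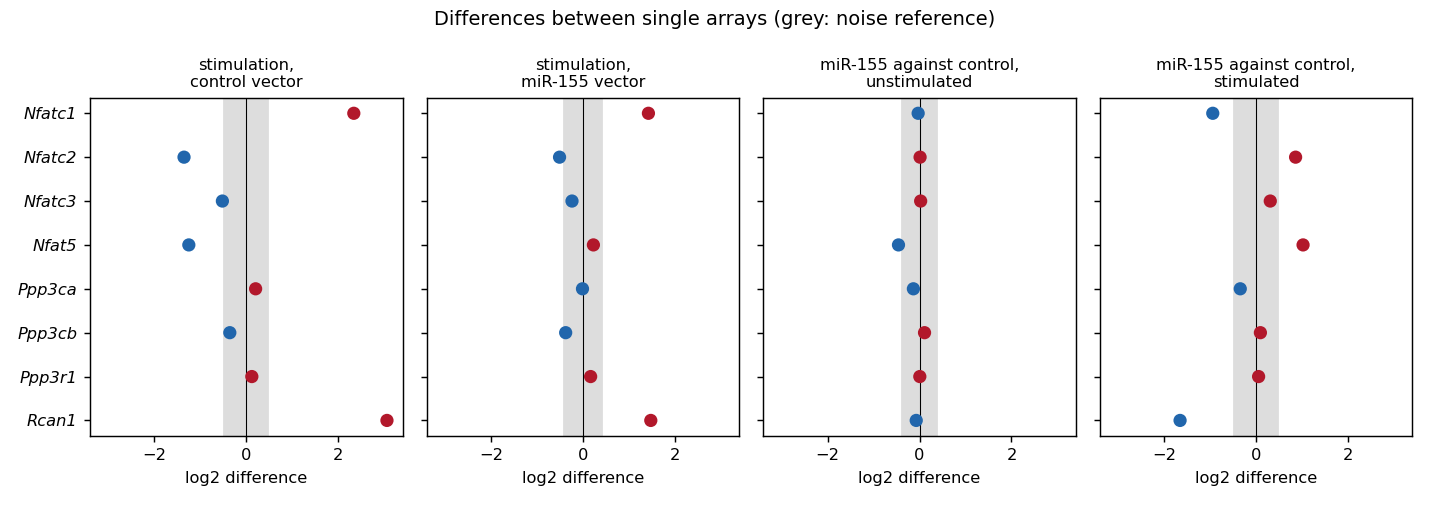
Log2 differences of the 8 genes above the floor in 4 comparisons of single arrays; red points are above 0, blue points below, and the grey band is the noise reference of each comparison. Nfatc1 and Rcan1 lie right of the band with either vector, all but Nfat5 (-0.46) lie inside it between the unstimulated vectors, and Nfatc1, Rcan1, Nfatc2 and Nfat5 lie outside it between the stimulated vectors.

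Calcineurin is made of a catalytic A subunit, encoded by Ppp3ca or Ppp3cb, and the calcium-binding B subunit encoded by Ppp3r1. Ppp3ca stood at 8.23 in unstimulated control, 8.43 in stimulated control, 8.10 in unstimulated miR-155 and 8.09 in stimulated miR-155 cells. Ppp3cb stood at 9.65, 9.29, 9.76 and 9.38 on the arrays in the same order, and Ppp3r1 at 8.20, 8.32, 8.20 and 8.37. None of the 3 went past the noise reference in any of the 4 comparisons of 2 arrays. For Ppp3cb both responses were negative and near in size, -0.36 and -0.38, just inside references of 0.48 and 0.41. Ppp3cc, the third catalytic gene, stood at 7.33, 7.40, 7.22 and 7.09, and Ppp3r2, the testis form of the B subunit, was under the floor throughout.

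Camk4, a calmodulin-dependent kinase that acts on CREB and is known to support Nfatc1 induction in osteoclast precursors, was not measurable. Its values of 3.38, 3.58, 3.57 and 3.54 all lay below the floor, so no fold is given.

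Between the stimulated vectors 2 of the 8 genes (Nfatc2 and Nfat5) were higher in miR-155 cells by 1.5-fold or more, against 12.3% of all genes, and 2 at least 1.5-fold lower (Nfatc1 and Rcan1), against 13.6%. Between the unstimulated vectors 0 were past 1.5-fold in either direction, against 1.18% of all genes higher and 3.14% lower. The difference of the 2 responses, taken as miR-155 minus control, was -0.91 for Nfatc1, -1.58 for Rcan1, 0.85 for Nfatc2 and 1.48 for Nfat5, with a noise reference of 0.64. That is 2 of 8 at least 1.5-fold higher, against 14.5% of all genes, and 2 lower, against 13.9%. The remaining 4 genes lay between -0.21 and 0.28. The plot of the responses sets both vectors against each other.

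**Figure D3:**
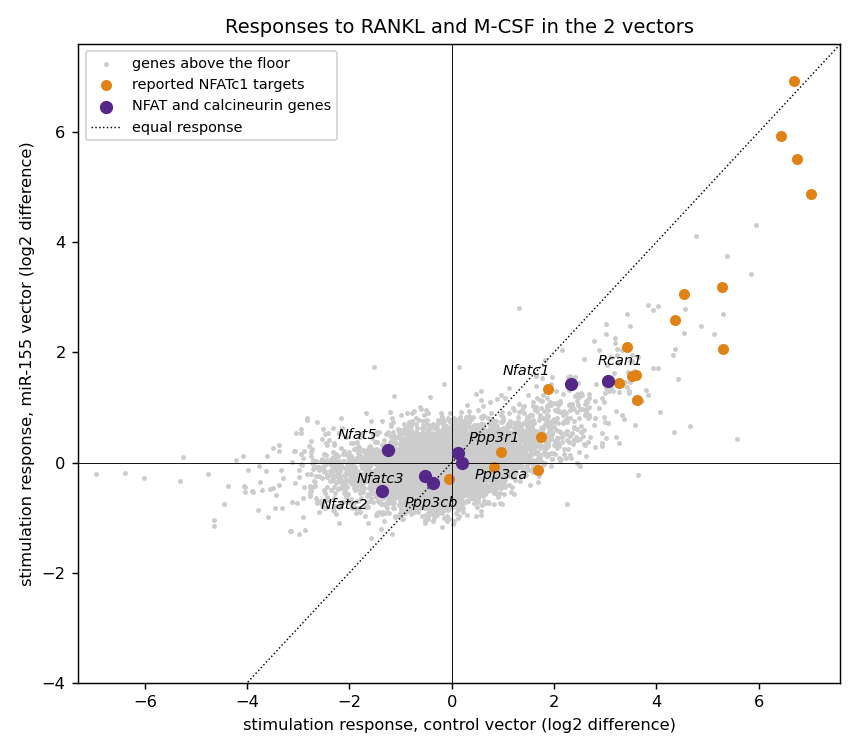
Stimulation response in control cells (horizontal) against that in miR-155 cells (vertical), both as log2 differences between single arrays; grey points are genes above the floor, orange points the reported NFATc1 targets and purple points the 8 NFAT and calcineurin genes, and the dotted line marks equal responses. Nfatc1 (2.34 and 1.42) and Rcan1 (3.06 and 1.48) lie below that line, as do 18 of the 19 targets.

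The only model with an error term treated stimulation and vector as additive effects over the 4 arrays (limma, Benjamini-Hochberg adjustment over 13561 genes). Its 1 residual degree of freedom is the disagreement between the vectors and not the spread of replicate cultures. For stimulation it called 0 genes, or 0% of all, with 1020 at an unadjusted p under 0.05, and for miR-155 0 genes, with 524. Over both vectors limma put stimulation at 1.88 (SE 0.30) for Nfatc1 with an adjusted p of 0.649 and an unadjusted p of 0.00318, higher in 2 of 2 vectors. Rcan1 had 2.27 (SE 0.44) with an unadjusted limma p of 0.00663, and Nfatc2 -0.93 (SE 0.29) with 0.0308, both with an adjusted p of 0.649. None of the 8 genes therefore passed the test for stimulation. For miR-155 the lowest adjusted p among them was 0.889 by limma.

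Over the 4 arrays the genes whose pattern was nearest to that of Nfatc1, by Euclidean distance between log2 values centred on each gene's mean, were Acaa2 (0.033), Ankrd2 (0.057), Ppm1j (0.11), Hagh (0.13) and Lpin3 (0.21). Acaa2, a mitochondrial thiolase of fatty acid oxidation, had responses of 2.35 and 1.46 in control and miR-155 cells. Hagh, a glyoxalase, had 2.41 and 1.56, and Lpin3, a phosphatidate phosphatase, 2.29 and 1.32. Rcan1 came 87th by this measure at a distance of 0.63, with a larger control response. With 4 points per gene, many genes come close to any given pattern.

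The remaining genes of the pathway were taken from lists made by hand, and the plot of pathway genes shows all of them. Their counts are to be read against the shares of all genes given above, which for stimulation were 12.3% at least 1.5-fold higher and 15.1% lower in control cells, and 3.43% and 3.73% in miR-155 cells. Among 12 calcineurin regulators, calmodulins and immunophilins above the floor, 3 were at least 1.5-fold higher and 1 lower in stimulated control cells, with a median of 0.06, and 0 were past 1.5-fold in miR-155 cells, with a median of -0.20. Rcan3, a sister of Rcan1, stood at 7.03, 7.75, 7.25 and 6.74 in unstimulated control, stimulated control, unstimulated miR-155 and stimulated miR-155 cells, differences of 0.72 and -0.50. The immunophilin Fkbp8, reported to inhibit calcineurin, had 0.70 and -0.45, and the calcineurin-like protein gene Chp1 0.60 and -0.11. Of the calmodulin genes, Calm2 had -0.71 and 0.09 and Calm3 0.04 and -0.28.

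Nfatc4, NFAT kinases, coactivators and binding proteins and nuclear transport factors made a list of 17, of which 1 was at least 1.5-fold higher and 4 lower in stimulated control cells (median -0.11), and 0 higher and 3 lower in miR-155 cells (median -0.11). Dyrk2, a kinase that phosphorylates NFAT, was the higher one, with 1.52 in control and 0.25 in miR-155 cells. The export receptor Xpo1 had -1.15 and 0.30, the import receptor Kpnb1 -1.10 and -0.25, and Lrrk2, a kinase reported to hold NFAT in the cytoplasm, -1.04 and 0.11. Nfatc4 hardly left the floor, at 4.24 to 4.61.

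Genes for calcium entry and release had a median of 0.22 in control and -0.12 in miR-155 cells. In control cells 4 of 17 were at least 1.5-fold higher and 0 lower, and in miR-155 cells 0 were past 1.5-fold. The 4 were the calcium-permeable channel Trpv2 (1.27 in control, 0.56 in miR-155 cells), the endoplasmic reticulum calcium pump Atp2a3 (0.86, 0.09), the store-operated channel Orai2 (0.83, -0.12) and the inositol trisphosphate receptor Itpr3 (0.68, -0.20). The calmodulin-dependent kinases and CREB factors went both ways, with 3 of 14 higher and 3 lower in control cells, and 0 higher and 3 lower in miR-155 cells. Camk2d, a kinase of the CaMKII family, stood at 1.96 and 0.54 and the coactivator Ppargc1b at 1.59 and -0.17, whereas Camk1d had -1.40 and -0.17 and Creb1 -1.09 and 0.07.

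ITAM costimulation feeds calcium signals into the pathway. Of 11 such genes, 5 were at least 1.5-fold higher and 1 lower in control cells (median 0.58), and 3 were higher and 0 lower in miR-155 cells (median 0.05). The ITAM-associated receptor Oscar had responses of 5.85 and 3.43, the kinase Syk 1.61 and 0.71, the adaptor Gab2 1.31 and -0.05 and the kinase Tec 0.90 and 0.60.

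Genes reported to induce Nfatc1 had a median response of 1.05 in control and 0.00 in miR-155 cells. In control cells 8 of 11 were at least 1.5-fold higher and 0 lower, and in miR-155 cells 3 were higher and 1 lower. Myc stood at 4.04 and 2.85, the AP-1 family gene Fosl2 at 3.47 and 1.26, Jdp2 at 3.01 and 2.33 and Fos, the AP-1 partner of NFAT at the Nfatc1 promoter, at 1.82 and 0.00. Of 7 genes on the repressor list, 1 was at least 1.5-fold higher and 4 lower in control cells (median -1.01), and 2 were higher and 2 lower in miR-155 cells (median -0.23). Irf8, which restrains NFATc1, had -2.33 and -0.86, and Id2, an inhibitor of differentiation factors, had 1.04 and 1.18. Ezh2 (-1.68, -0.09) and Cebpa (-1.38, -1.20) act otherwise than the name of that list says: the former is a histone methyltransferase reported to silence Irf8 in osteoclast precursors, and the latter a myeloid factor reported to favour osteoclast formation. Without these, left out after the values were seen, 1 of 5 was at least 1.5-fold higher and 2 lower in control cells, with a median of -0.00, and 2 were higher and 1 lower in miR-155 cells.

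Reported NFATc1 targets in osteoclasts had a median response of 3.60 in control and 1.59 in miR-155 cells, with 18 of 19 at least 1.5-fold higher in the former and 14 in the latter, and 0 lower in either. The matrix protease Mmp9 had 7.02 and 4.88, the proton pump subunit Atp6v0d2 6.75 and 5.52, cathepsin K gene Ctsk 6.68 and 6.92, and the acid phosphatase Acp5 6.43 and 5.93. Ctsk thus had the larger response in miR-155 cells, from a level of 4.26 beside the floor against 6.72 in control cells, and ended lower, at 11.18 against 13.40. The list overlaps the osteoclast markers and holds genes with weaker evidence as targets, such as Dnmt3a (0.96, 0.19), a DNA methyltransferase reported to silence Irf8. Between the stimulated vectors 18 of the 19 were at least 1.5-fold lower in miR-155 cells, against 13.6% of all genes. The median of the 19 in that comparison was -1.76, beside -0.94 for Nfatc1 itself. That comparison rests on the stimulated control array, which stood apart from the others.

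Between the unstimulated vectors the counts past 1.5-fold in these lists are to be read against 1.18% of all genes higher and 3.14% lower. Among the calcineurin regulators, the NFAT kinases and binding proteins and the calmodulin-dependent kinases 0 were past 1.5-fold. The calcium pump Atp2b1 (-0.70), the guanine nucleotide exchange factor Vav3 (-1.00) and the transcription factor Mitf (-0.63) were lower in miR-155 cells, and Cebpa was higher (0.63). Of the 19 targets 3 were lower, against 3.14% of all genes, namely Ctsk (-2.45), Atp6v0d2 (-0.97) and the proton pump subunit Tcirg1 (-0.67). The fusion gene Ocstamp was the 1 higher target (0.68). Between the stimulated vectors 10 of 11 inducers of Nfatc1 were at least 1.5-fold lower in miR-155 cells (median -0.94), as were 8 of 11 ITAM genes (median -0.69), against 13.6% of all genes. On the repressor list 3 of 7 were higher, against 12.3% of all genes, and 0 lower (median 0.56). Without Ezh2 and Cebpa, Irf8 alone of 5 was higher.

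**Figure D4:**
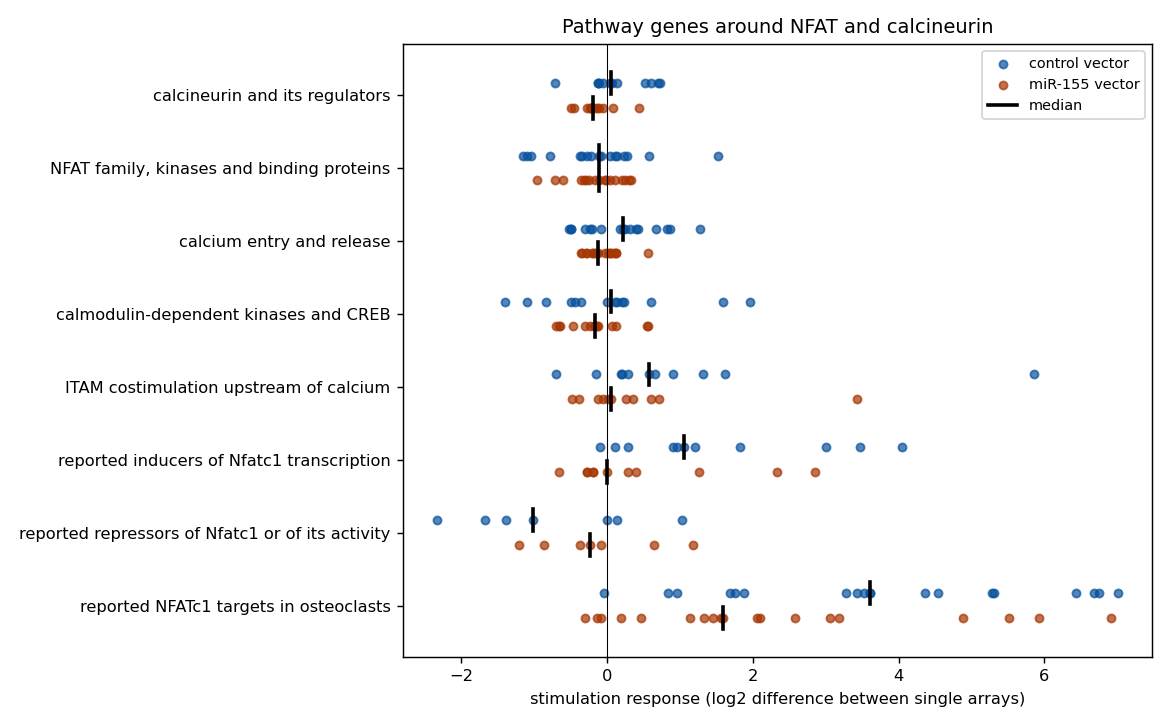
Stimulation responses, as log2 differences between single arrays, of the genes above the floor in 8 hand-made lists; blue points are control cells, brown points miR-155 cells, and black bars the medians. The targets (medians 3.60 and 1.59) and the inducers of Nfatc1 (1.05 and 0.00) lie furthest right in control cells. The repressor list as drawn lies left (-1.01 and -0.23). Without Ezh2 and Cebpa, which act otherwise than its name says, its median in control cells is -0.00.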

How the data were processed

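RNA from 4 cultures was measured on 4 Affymetrix Mouse Gene 1.0 ST arrays, 1 per group, after column extraction and biotin labelling of 100 ng total RNA, per the labels' protocols. Each probe set has 1 deposited log2 value per array. The submitters' processing notes name RMA and Partek; no version or genome build is given in the sources used here. RMA makes the distributions of the arrays alike and hides changes of total RNA per cell. Of 35557 probe sets, the platform annotation gave 21789 a single symbol, 1621 several and 12147 none; a gene was read from its probe set of highest mean. Arrays give no read depth, and their number limits the precision.

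Differences of log2 values between arrays were counted past 1.5-fold. limma 3.58.1 (lmFit and eBayes, R 4.3.3) was fitted on all 13561 genes above the floor, with a threshold of 0.05 on the adjusted p. It was also run on simulated data with noise of SD 0.2 and stimulation changes equal in both vectors. The real responses differed between the vectors, so that run does not give its power or error here. Python 3.11.15, numpy 2.4.6, pandas 2.3.3 and matplotlib 3.10.9 were used. The genes, lists and tests were chosen with earlier results of these data known. Named were the 9 genes, a few preset genes of the lists and the 5 genes nearest Nfatc1. So were the 4 genes of each list with the largest absolute response in control cells. Cd3d, Cd3g, Cd3e, Cd247, Ppp3r2, Dnmt3a and the genes past 1.5-fold between the unstimulated vectors were named after their values were seen. Prdm1 and Tnfrsf11a were named because they met the rule of opposite directions given below, which also rests on the values. Alternatives changed scaling, floor, probe set rule, fold and limma's prior.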

Additional observations from a re-analysis of the deposited data

Results flagged for a closer look

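The 9 genes below were taken from the pathway lists and the 8 genes above the floor. Their differences had opposite directions under the same contrast, each beyond the noise reference. The difference between the directions was not tested, since each group has 1 array. How many of all genes above the floor meet the same rule was not counted, so the number listed is not a result about these lists. Nfat5 was lower in unstimulated miR-155 than control cells (-0.46) and higher with stimulation (1.02), a gap of 1.48. Fos (0.53 and -1.30, a gap of -1.82) and Lrrk2 (-0.57 and 0.58, a gap of 1.15) also lay on opposite sides in the 2 states. The same held for Myc (0.38, close to the reference of 0.37, and -0.81, a gap of -1.19). So did Ocstamp (0.68 and -1.42, a gap of -2.10) and Tnfrsf11a, the RANKL receptor gene (0.38, close to the reference of 0.37, and -0.73, a gap of -1.11). Prdm1 did too (0.45 and -2.81, a gap of -3.26), but its value in unstimulated control cells lay under the floor. Counted from the floor, its difference between the unstimulated vectors is at least 0.14, a bound inside the reference of 0.37. Under stimulation Rcan3 (0.72 in control and -0.50 in miR-155 cells, a gap of -1.22) and Fkbp8 (0.70 and -0.45, a gap of -1.15) had opposite responses. The value of Fkbp8 in miR-155 cells was close to the reference of 0.41. Each gap uses the stimulated control array, which stood apart from the others, and its part in them was not tested.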

How the results depend on the processing

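Counts of genes past 1.5-fold were the same under centred arrays and renewed quantile normalization in all 5 comparisons. Values set to the floor and the mean of a gene's probe sets leave the 8 genes as they are by construction, since each has 1 probe set and lies above the floor on all 4 arrays, and no floor adds Camk4 alone; these 3 say nothing about stability. At 2-fold the count between the stimulated vectors was 2 in place of 4, with Nfat5 and Rcan1 left, and that for the difference of the responses likewise 2 in place of 4. The largest shift of a single difference of the 8 genes was 0.15, under quantile normalization. limma called 2 genes for stimulation with centred arrays, 2 with quantile normalization, 2 with an intensity trend and 1 with the mean of probe sets, none of them an NFAT or calcineurin gene; the lowest adjusted p among those genes by limma ran from 0.554 to 0.719. For miR-155 it called 0 genes under every alternative. Leaving out a culture was not possible with 1 array per group. No replicate block could be fitted, since each group has 1 sample; the additive limma model already sets the arrays of each vector against each other. Of the comparisons, stimulation in miR-155 cells and that of the unstimulated vectors do not use the stimulated control array.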
